A study of Mus musculus and Homo sapiens with 4 samples.

Results

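The 5' leaders described here are the stretches of HEK cell messages that lie before the annotated coding region, and they were followed through capture of tagged ribosomes. A leader was taken where both HEK libraries list a leader and a coding region for the transcript and where the leader held 100 or more reads summed over the bound and input libraries. This gave 1048 leaders of 65165 HEK transcripts with both regions listed, out of 103691 such transcripts in HEK cells and mouse ES cells together. The leaders were divided by their reads per coding read in the input, with 239 below 0.1, 584 from 0.1 to below 1, 211 at 1 or more, and 14 whose coding region had 0 input reads. These choices use the reads of both libraries, and the classes use the input, which is also the denominator of every ratio below. The ratios are therefore descriptions, and no test was made of them.

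The study sequenced ribosome footprints, the pieces of message covered by ribosomes when unprotected RNA is digested. The bound library holds footprints of ribosomes captured on streptavidin by a tag on their large subunit, from HEK cells, which are a line of human embryonic kidney origin. The input library holds footprints from HEK cells in the same medium (DMEM with 10% FBS) without that capture. Both lysates were separated by size exclusion chromatography after digestion. The labels give no drug, clone or tag construct for the HEK samples, and each group had 1 library, so intervals cover counting error only and not variation between cultures. The files do not pair transcript identifiers with genes, and the name tables used here cover mouse genes, so 0 of the 1048 human identifiers were matched. Gene roles and the markers of HEK cells could therefore not be looked up, and leaders are described by their reads.

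Before it reaches the start codon, the small ribosomal subunit scans the leader from the cap of the message. Leaders can carry short upstream open reading frames, on which complete ribosomes assemble, and footprints on such frames are a known source of leader reads. The large subunit joins at a start codon, so scanning small subunits alone do not carry it. RNA held by other proteins or folded tightly can also survive nuclease digestion. Isoforms of one gene often share a leader, so several transcripts can list the same reads.

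The counts of all HEK transcripts summed to 30208713 in the bound library and 17446956 in the input. Bound reads were scaled down by 1.99, the factor that centres coding regions of 100 or more summed reads on a log2 ratio of 0. The 1048 leaders held 302108 reads in the bound library and 354331 in the input, which is 59.6% and 71.8% of the leader reads of transcripts with both regions listed. They repeat one another in part, with 884 different pairs of leader counts and 861 different pairs of coding counts. Each leader had reads in both libraries. In the bound library 605 leaders reached 100 reads and in the input 307 did, with 299 reaching it in each. Of the rest, 306 reached it in the bound library but not the input (median log2 ratio 0.041). Only 8 reached it in the input but not the bound library (median -2.21), and 435 reached it only through the sum. Since bound reads are divided by 1.99, the cutoff itself puts the 8 about 2-fold lower or more, and the 306 above that. These medians and the small number of 8 thus follow in part from the cutoff and the deeper bound library.

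Most leaders stayed within 2-fold of their input level after capture, and a small set that held most of the input leader reads did not. After capture, 43 of the 1048 leaders (4.1%) were lower by 2-fold or more and 0 (0%) were higher by as much at the scaling to the median coding region. Over leaders, coding regions and trailers together, 338 of 31786 parts with 100 or more reads were that much lower (1.06%) and 20 that much higher (0.0629%). Among 26492 coding regions 0.857% were lower and 0.0528% higher by this threshold, and among 4246 trailers 1.6% were lower and 0.141% higher. The 43 lower leaders held 31.0% of the leader reads counted here in the bound library and 68.7% in the input. The other 1005 leaders, all within 2-fold, held 69.0% in the bound library and 31.3% in the input, and their summed reads were 1.06-fold lower after capture. The median log2 ratio over all 1048 was -0.14, with quartiles at -0.42 and 0.12, and that of coding regions was 0 by construction.

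Scaling to the total of all transcript counts shifts every ratio up by 0.20 and turns the median of the leaders to 0.059, so the sign of that median depends on the scaling. The gap between a leader and its own coding region does not. Beyond counting error, 242 leaders had an exact (Clopper-Pearson) 95% counting interval wholly below an unchanged ratio (23.1%) and 62 had one wholly above it (5.92%). For coding regions these shares were 11.9% and 11.4%.

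Leaders with few reads relative to their coding region were slightly and broadly lower in the bound library. The 239 leaders with under 0.1 leader reads per coding read had a median log2 ratio of -0.27, with quartiles at -0.52 and 0.066. Of them 168 were below 0 (70.3%) and 4 were at least 2-fold lower. Those 4 had log2 ratios between -1.13 and -1.003. The leader with the most reads of this class had 1753 reads in the bound library and 786 in the input, a log2 ratio of 0.17. Its coding region had 18926 and 8475 reads, also a ratio of 0.17. Summed over the class, leaders made up 2.87% of the reads of the 3 parts (leader, coding region and trailer) in the bound library and 3.54% in the input.

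At the scaling to the median coding region, leaders with intermediate reads had the median nearest to their input level. Scaled to all counts this did not hold, with medians of 0.11 in this class, -0.070 below 0.1 and 0.031 at 1 or more. The 584 leaders from 0.1 to below 1 leader reads per coding read had a median log2 ratio of -0.086, with quartiles at -0.35 and 0.14. Of them 13 were at least 2-fold lower, with 36 to 119 reads in the bound library and 57 to 163 in the input. The most abundant of the class had 2966 bound reads and 1414 input reads, a log2 ratio of 0.077. The next had 1959 and 855 reads, a log2 ratio of 0.20, while its coding region had 4224 and 2739 reads and a log2 ratio of -0.37. In that transcript the leader thus stood above its coding region by 0.57 on the log2 scale. At scaled depth the summed leader reads of the class had a bound over input ratio of 0.953.

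Most leaders with at least as many reads as their coding region lay within 2-fold of the input level, and a few lay far below it. The 211 leaders of this class had a median log2 ratio of -0.17, close to that of all leaders, with quartiles at -0.42 and 0.13. Of them 19 were at least 2-fold lower, with log2 ratios from -5.30 to -1.21, and 192 were not, with log2 ratios from -0.95 to 0.68. The size of the lower set depends on the threshold, with 34 leaders at 1.5-fold and 8 at 4-fold. By sum, the class was 3.35-fold lower in the bound library. Without the 4 leaders of this class that had 10000 or more reads, it was 1.17-fold lower, so its loss by sum lay in those 4. From 1 to below 3 leader reads per coding read, 7 of 113 leaders (6.19%) were at least 2-fold lower. From 3 to below 10 these were 6 of 60 (10.0%), and at 10 or more 6 of 38 (15.8%). These bins use the input leader reads, which are also the denominator of the ratio, so a rise in the share can come from the binning itself. With classes taken from the bound library, 13 leaders at 1 or more were at least 2-fold lower instead of 19.

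High leader reads were otherwise often kept. Among leaders of this class with 1000 to under 10000 reads, 17 of 18 had log2 ratios between -0.28 and 0.49. One of these had 2518 leader reads in the bound library and 1025 in the input, a log2 ratio of 0.31, while its coding region had 304 and 175 reads. Another had 1748 and 921 leader reads, a log2 ratio of -0.067, with 500 and 258 coding reads and 398 and 204 trailer reads. All 3 parts of that transcript kept their proportions. One more had 1929 and 963 leader reads, with a log2 ratio of 0.011. Of the 17, 10 were above 0, and the median log2 ratio of the 17 was 0.086. The 17 show 16 different pairs of leader counts and 14 of coding counts. Further pairs are nearly equal, so some of the 17 may list largely the same reads.

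The 2-fold threshold divided the 14 leaders whose coding region had 0 input reads into a lower and an upper group of 7 each. In the lower group the log2 ratio lay between -3.55 and -1.91, and in the upper group between -0.98 and 0.12. The leader at -0.98 lay just short of the threshold, and scaling by coding counts gave 8 lower leaders. The most abundant of the lower group had 12702 leader reads in the bound library and 42235 in the input, 6.61-fold lower at scaled depth, with 0 coding and 0 trailer reads in either library. The next had 957 and 5043 reads and was 10.5-fold lower. In the upper group the most abundant leader had 419 and 194 reads, a log2 ratio of 0.12. Within this group 1 transcript had 14 coding reads in the bound library, and the other coding regions had 0 in both libraries. A count of 0 still allows up to 3 reads in a library.

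**Figure D1:**
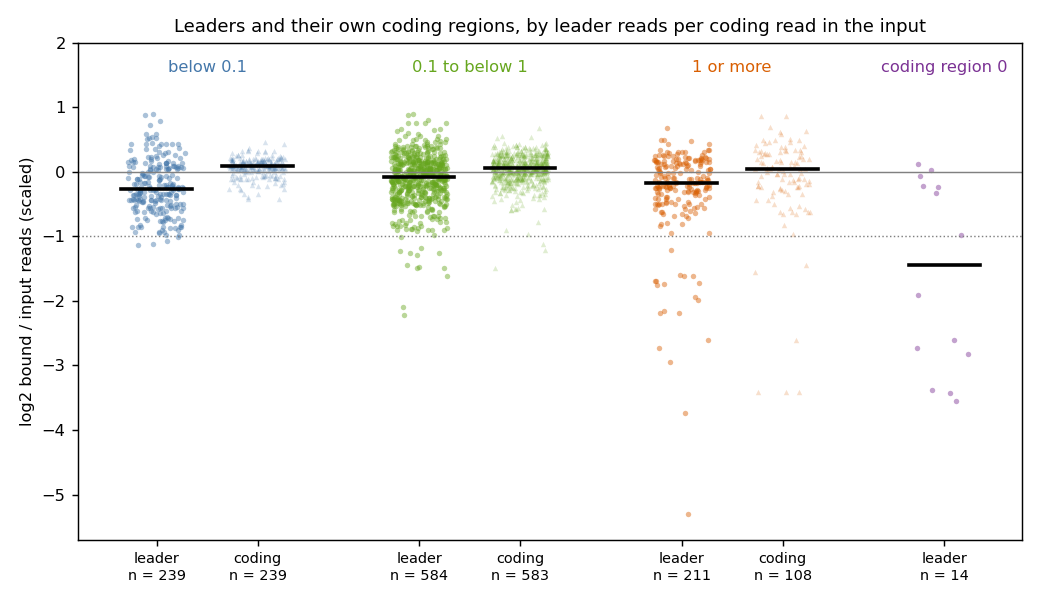
Log2 bound over input reads at scaled depth (vertical axis) for each leader and, to its right, for its own coding region where that held 100 or more summed reads, grouped by leader reads per coding read in the input; black bars are medians, the solid line is 0 and the dotted line is 2-fold lower. Leader medians are -0.27, -0.086, -0.17 and -1.45 from left to right, and most points below -2 lie at 1 or more or with a coding region at 0, with 2 from 0.1 to below 1.

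A few leaders dominated the leader reads, and each of these was lower after capture. The 5 leaders with 10000 or more summed reads held 29.6% of the leader reads counted here in the bound library and 65.0% in the input. ENST00000600213.2, the most abundant, had 48515 reads in the bound library and 111588 in the input. It was 4.57-fold lower, with a 95% exact counting interval of 4.52 to 4.62, and its coding region had 0 bound reads and 1 input read. Nearly all of this transcript's reads lay in the leader, with 48523 reads in the whole transcript in the bound library and 111642 in the input.

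The second most abundant leader had 17862 bound reads and 54769 input reads and was 6.10-fold lower. The next is the leader with 42235 input reads and no coding reads described above. It is followed by a leader with 5682 bound and 12773 input reads, 4.47-fold lower, and by the last of the 5, which had 4618 and 8896 reads and was 3.83-fold lower. All 5 had more reads in the input than in the bound library even before the scaling.

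In the 3 of these 5 transcripts with more than 1 coding read, the coding region was lower still. The transcripts with 54769, 12773 and 8896 input leader reads had 398, 396 and 398 coding reads in the bound library and 2136, 2132 and 2142 in the input. These coding counts are nearly equal, so the 3 may list largely the same reads, although each is counted as 1 leader here. Their coding regions had log2 ratios of -3.41, -3.42 and -3.42, below their leaders by 0.80 to 1.48 on the log2 scale. A trailer is listed for 2 of them. That of the transcript with 54769 input leader reads had 4579 bound and 48306 input reads and was 21.0-fold lower, and that of the transcript with 8896 had 1461 and 15100 reads and was 20.5-fold lower.

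Below 10000 reads, the share of lower leaders did not rise with abundance. The 59 leaders with 1000 to under 10000 reads had a median log2 ratio of 0.026, and 2 of them were at least 2-fold lower (3.39%). The other 57 lay between -0.35 and 0.49. The median was -0.097 for 210 leaders with 300 to under 1000 reads, of which 7 were at least 2-fold lower (3.33%). It was -0.18 for 774 leaders with 100 to under 300 reads, of which 29 were (3.75%). Within the class from 0.1 to below 1 the median also differed between these bins, with -0.12 at 100 to under 300 reads, -0.0042 at 300 to under 1000 and 0.036 at 1000 to under 10000. In the class below 0.1 the medians of the same bins were -0.28, -0.26 and -0.0086, the last over 5 leaders.

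**Figure D2:**
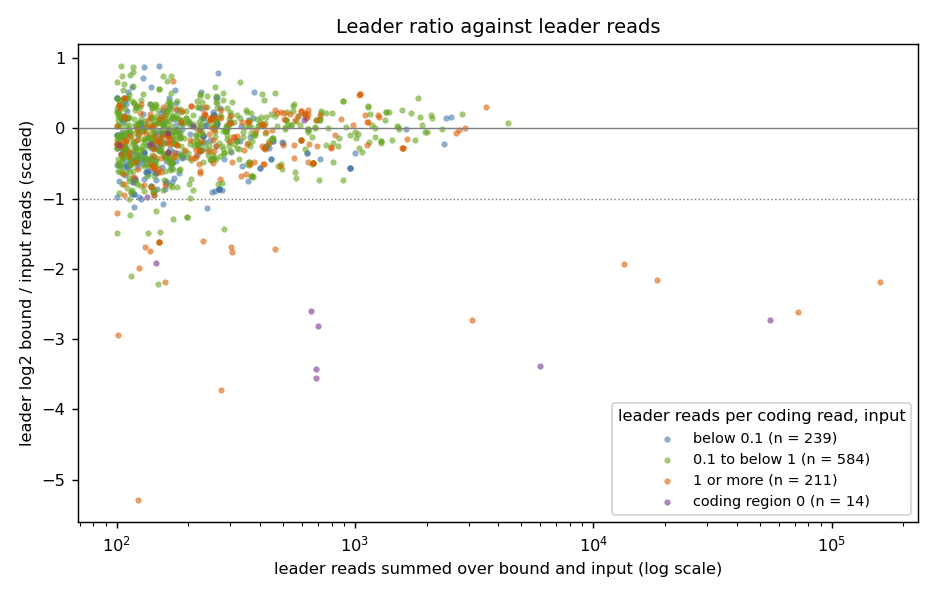
Leader log2 bound over input ratio at scaled depth (vertical axis) against leader reads summed over both libraries (horizontal log axis), 1 point per leader, coloured by leader reads per coding read in the input; the dotted line is 2-fold lower. The 5 leaders at or above 10000 reads lie between -2.72 and -1.94, while 57 of the 59 with 1000 to under 10000 reads lie between -0.35 and 0.49.

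The coding regions of these transcripts mostly stayed near the median coding region. Of the 1048 transcripts, 930 had a coding region with 100 or more reads, and the median log2 ratio of those coding regions was 0.067, with quartiles at -0.066 and 0.18. Among them 9 passed the 2-fold threshold downwards and 0 upwards. In the class below 0.1 the coding median was 0.095 and the leader minus coding difference had a median of -0.33 on the log2 scale (95% rank interval -0.41 to -0.27). From 0.1 to below 1 the coding median was 0.051 and the difference was -0.16 (-0.20 to -0.11). At 1 or more these were 0.036 and -0.19 (-0.26 to -0.093), over the 108 transcripts with enough coding reads. The rank intervals treat transcripts as independent although isoforms repeat reads, so they are too narrow.

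The leader was above its own coding region in 22.2% of the class below 0.1, in 35.7% of that from 0.1 to below 1 and in 31.5% of that at 1 or more. Relative to its own coding region, the leader was at least 2-fold lower in 32 of 930 transcripts (3.44%) and at least 2-fold higher in 7 (0.753%). For trailers against their own coding region, these shares were 1.07% and 1.19% of 1687. In all 7 transcripts with the leader relatively higher, the coding region was itself lower, with log2 ratios from -3.42 to -0.57. A coding ratio below 0 follows from the choice of these 7, since the highest leader log2 ratio of all was 0.89. Among the 7 are 2 transcripts with the same leader counts, 381 bound and 214 input reads, and a leader log2 ratio of -0.16. Their coding regions had 117 and 127 bound reads and 174 and 175 input reads, with log2 ratios of -1.56 and -1.45.

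Leader reads per coding read, taken in each library on its own, were lower in the bound library in 679 of the 1028 transcripts with coding reads in both libraries (66.1%). Their median was 0.254 in the bound library and 0.290 in the input. Most transcripts stayed in their class: 229 of 239 below 0.1, 531 of 584 from 0.1 to below 1 and 180 of 211 at 1 or more had a bound value in the same class. From the class at 1 or more, 24 had a bound value from 0.1 to below 1 and 1 had a bound value below 0.1. Another 6 of that class had 0 coding reads in the bound library.

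The 43 leaders that were at least 2-fold lower differed in what happened to the rest of their transcript. In 17 the coding region had 100 or more reads and was within 1.5-fold of the median coding region. In 2 it was over 1.5-fold and under 2-fold lower, and in 7 it was at least 2-fold lower. In 10 it had reads in the input but fewer than 100 in sum, and in 7 it had 0 input reads. The 17 with a kept coding region held 0.593% of the leader reads counted here in the bound library and 1.08% in the input. Most of the lost reads thus lay elsewhere, with 9.41% and 21.7% in the 7 whose coding region was lower too, 16.2% and 31.8% in the 10 with few coding reads, and 4.71% and 14.0% in the 7 with none.

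Leaders lost while their own coding region was kept were rare, and 2 of them stood far apart from the rest. The 17 make up 1.83% of the 930 transcripts with enough coding reads. For trailers the same criteria were met by 14 of 1687 (0.83%). Their leader log2 ratios ran from -5.30 to -1.003 with a median of -1.28, and their coding log2 ratios from -0.46 to 0.27. By class, 4 of them were below 0.1, 10 from 0.1 to below 1 and 3 at 1 or more. They show 15 different pairs of leader counts and 16 of coding counts, so some repeat the reads of another.

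ENST00000331825.6 had the lowest ratio of all 1048 leaders. Its leader had 5 reads in the bound library and 118 in the input, 46.9-fold lower with a 95% exact counting interval of 19.5 to 147. Its coding region had 181 bound and 104 input reads, a log2 ratio of -0.19. The leader thus held more reads than the coding region in the input and 0.0276 reads per coding read in the bound library. The trailer of the same transcript had 1 bound and 5 input reads, too few to read.

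The other leader more than 4-fold lower with a kept coding region had 716 reads in the bound library and 2380 in the input, 6.61-fold lower. Its coding region had 360 and 163 reads, a log2 ratio of 0.15, so the leader stood 2.87 below it on the log2 scale. A transcript for which no coding region is listed has exactly the same pair of whole-transcript counts, 716 and 2380. Among leaders not 2-fold lower, such matches are common where counts are low. They occurred for 591 of 745 with 100 to under 300 reads, 35 of 203 with 300 to under 1000 and 0 of 57 with 1000 to under 10000. Among lower leaders with 300 or more reads this was the 1 match of 14, against 35 of 260 leaders not 2-fold lower. Of the lower leaders with 100 to under 300 reads, 2 of 29 had such a match. The files give no positions, and whether this leader and that transcript overlap was not tested.

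The remaining 15 had leaders with 41 to 119 bound reads and 57 to 163 input reads, and log2 ratios from -1.62 to -1.003. Of these, 1 had 119 bound and 163 input leader reads over a coding region with 2548 and 1063 reads, so that the leader was at -1.44 and the coding region at 0.27. Another had 63 and 89 leader reads over 191 and 93 coding reads, with log2 ratios of -1.48 and 0.047. A set of 3 transcripts had 77 to 89 bound and 95 to 108 input leader reads over coding regions of 1388 to 1422 and 744 to 777 reads. These 3 have nearly equal counts and may list largely the same reads, although each is counted among the 17. For all 17 the upper limit of the counting interval lay at a ratio of 0.727 or less. A limit below an unchanged ratio follows from choosing leaders with a low ratio and enough reads. It is therefore no separate evidence of loss, and the intervals make no allowance for that choice.

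**Figure D3:**
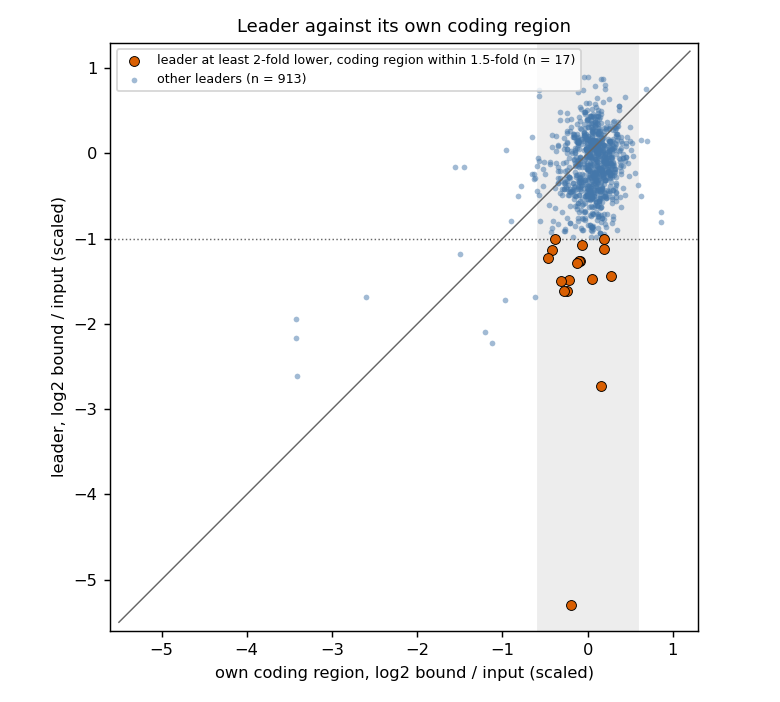
Leader log2 bound over input ratio (vertical axis) against that of its own coding region (horizontal axis) for the 930 transcripts with 100 or more coding reads; the diagonal marks equal ratios, the dotted line a leader 2-fold lower and the grey band a coding region within 1.5-fold. The 17 large points are leaders lost with a kept coding region, 2 of them below -2, and the 3 points with a coding log2 ratio near -3.42 belong to abundant leaders.

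**Figure D4:**
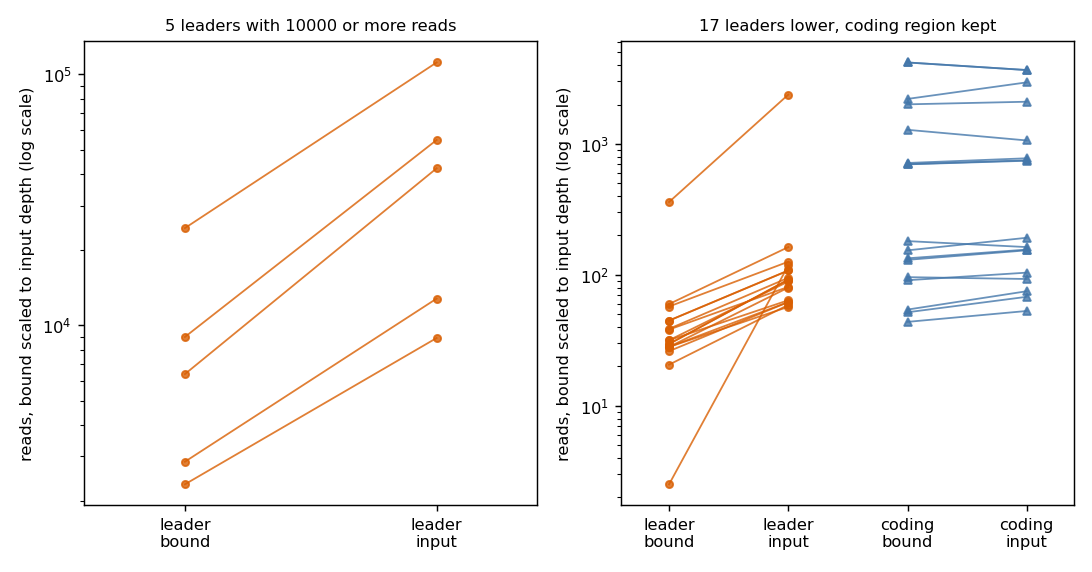
Reads on a log axis, with bound reads scaled to the depth of the input, for the 5 leaders with 10000 or more summed reads (left) and for the 17 leaders lost with a kept coding region together with their coding regions (right); each line joins the bound and input values of 1 region. All leader lines are lower at bound, and the coding lines are nearly level.

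Where the coding region held too few reads to judge, the lower leaders were mostly small. Apart from ENST00000600213.2, the 9 others of this kind had 20 to 112 leader reads in the bound library and 54 to 240 in the input, with log2 ratios from -3.73 to -1.21. The lowest had 35 bound and 240 input leader reads, 13.6-fold lower, over a coding region with 19 and 28 reads. Among the 7 whose coding region was at least 2-fold lower, 3 are the abundant leaders above. One of the others had 44 bound and 105 input leader reads and 211 and 232 coding reads, with log2 ratios of -2.22 and -1.12.

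At the other end no leader reached 2-fold at the scaling to the median coding region, and 5 did when scaled to all counts. ENST00000537679.1 had the highest ratio, with 119 reads in the bound library and 32 in the input, a log2 ratio of 0.89 and a counting interval of 1.26 to 2.86 for the ratio. Its coding region had 4063 and 2110 reads, a log2 ratio of -0.046. ENST00000578270.1 had 82 and 22 leader reads and also a log2 ratio of 0.89, with an interval of 1.16 to 3.15. Both rest on few input reads.

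Trailers, whose reads were not used to choose these transcripts, could be read in 66 of them. In all 6 with a leader at least 2-fold lower, the trailer was at least 2-fold lower too, with log2 ratios from -7.88 to -3.26. In the 60 others, 0 trailers were at least 2-fold lower, with log2 ratios from -0.90 to 0.77 and a median of 0.056. These 6 cover neither the leaders lost with a kept coding region nor those with few but not 0 coding reads. The 6 are 2 of the abundant transcripts with near-equal coding counts and 4 transcripts with 0 coding reads. One of these 4 had 37 trailer reads in the bound library and 4510 in the input, beside 153 and 545 leader reads. In another with 0 coding reads the trailer was kept, with 36864 bound and 16145 input reads and a log2 ratio of 0.20. Its leader, with 67 reads in each library, had a log2 ratio of -0.98 and lay just short of 2-fold.

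Leaders lay closely on both sides of each threshold. The 25 leaders with exactly 100 summed reads had 41 to 76 bound and 24 to 59 input reads and a median log2 ratio of -0.097. The 12 with 99, just outside, had 55 to 73 and 26 to 44 reads and a median of -0.12. Just under a leader to coding value of 0.1 the median log2 ratio was -0.024 (16 leaders) and just from it -0.091 (20 leaders). Just under a value of 1 it was -0.049 (17 leaders) and just from it -0.28 (17 leaders). Within 0.1 of the 2-fold threshold on the log2 scale, 3 leaders lay past it and 16 short of it.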

How the data were processed

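Ribosome footprints were made with RNase I, per the labels' protocols, and, after linker ligation and reverse transcription, the circular cDNA was amplified by PCR. The labels mention no molecular identifiers. Copies of one footprint are then not independent, and every interval or floor is for counting error alone. The authors deposited raw read counts per whole transcript, coding region, 5' leader and 3' trailer, 1 file per library, per the file headers. CASAVA 1.8, Bowtie2 2.0.6 and TopHat2 2.0.7 appear in the submitters' processing notes with no role stated. The sources used here do not state how reads were counted, on which annotation or with what rule for several matches. Multiply matched reads could raise or lower any leader.

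Ratios are bound over input, scaled to the median coding region, with a prior of 0.5 scaled reads, in Python 3.11.15 with numpy 2.4.6, pandas 2.3.3 and scipy 1.17.1. TMM factors came from edgeR 4.0.16. A count of 0 was read as allowing up to 3 reads, and no ratio or interval given here uses this floor. With 1 library per group no test or p-value exists. Leaders, classes and alternatives were chosen with earlier results of these data known. The named leaders are those with 10000 or more reads, the lowest and highest ratios, the lost leaders furthest below their coding region, and the most abundant per class, with identifiers printed for 4. Other examples were chosen after their values were seen. The planned gene lists, marker check and choice of 1 transcript per gene were not run, since the name tables used here cover mouse genes, not human ones. The script was checked on simulated data.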

Additional observations from a re-analysis of the deposited data

Results flagged for a closer look

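In the 995 transcripts with all 3 parts listed, 7.07% of the reads in the bound library lay in none of the parts, against 5.86% in the input. This drew attention because the comparisons above use none of these reads and their share was higher in the bound library. Without the leaders of 10000 or more reads the shares were 7.38% in the bound library and 7.49% in the input, so the order turned.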

How the results depend on the processing

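No paired analysis was possible because bound and input have 1 library each. In these comparisons 143 of 192 values stayed within the interval of the reported median or within 1.5 times the reported count. Scaling by all counts gave leader medians of 0.059 for all leaders, -0.070 below 0.1, 0.11 from 0.1 to below 1 and 0.031 at 1 or more, with 5 leaders at least 2-fold higher and 0 lower below 0.1; the coding median became 0.27 and the trailer median 0.21. TMM scaling gave leader medians of -0.081 for all leaders and -0.029 from 0.1 to below 1 and a coding median of 0.12, and scaling by coding counts a coding median of 0.045. These shift all ratios alike. With a minimum of 30 reads there were 4330 leaders, with medians of -0.26 for all leaders, -0.23 from 0.1 to below 1 and -0.34 at 1 or more. Lower leaders then numbered 458 for all leaders, 111 below 0.1, 219 from 0.1 to below 1, 109 at 1 or more and 19 with no coding reads, 58 were higher, and 301 were lost with a kept coding region. The coding median was 0.031 and the leader stood -0.27 from its coding region. With a minimum of 500 reads there were 156 leaders, with medians of 0.0052 for all leaders, -0.34 below 0.1, 0.024 from 0.1 to below 1 and 0.051 at 1 or more. Lower leaders numbered 11 for all leaders, 0 in the first 2 classes and 5 at 1 or more, and 1 was lost with a kept coding region. The coding median was 0.12, the difference -0.055 and the trailer median -1.71. At 1.5-fold 148 leaders were lower (46, 60 and 34 in the first 3 classes), 20 higher and 109 lost with a kept coding region. At 4-fold these were 16 lower (0, 2 and 8) and 2 lost. Shares over coding regions and trailers were not computed at these other minimums and folds. The counts of lower, higher and lost leaders there thus have no background to be set against. Below 0.1, a prior of 5 gave 2 lower leaders and classes taken from the bound library gave 9. The cause of these differences was not tested. The 5 abundant leaders were at least 2-fold lower under each scaling and prior tried. Choosing 1 transcript per gene was not run.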
